A study of Mus musculus with 6 samples.

Results

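Histone variants and chromatin architectural proteins were followed as 10 genes in single cardiomyocytes (CMs) of the developing mouse left ventricle. The H2A variants were H2afz and H2afv, which encode the 2 forms of H2A.Z, and H2afx, which encodes H2A.X. H3f3a and H3f3b encode the same H3.3 protein. Linker histones were represented by H1f0 (H1.0), Hist1h1c (H1.2) and H1fx (H1.X), and the high-mobility-group (HMG) proteins by Hmgb2 and Hmgn2. The genes were taken by symbol, and all 10 were found among the 27998 genes of the files.

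Nucleosomes wrap DNA around a core of histones, and linker histones of the H1 family bind the DNA that enters and leaves this core. Most core histone is made in S phase from clustered genes whose mRNAs end in a stem-loop in place of a poly(A) tail. Variant histones, in contrast, are mostly made from polyadenylated mRNAs and can be placed into chromatin outside of DNA replication. H2A.Z sits at promoters and enhancers, H2A.X is phosphorylated at DNA breaks, H3.3 replaces H3 in transcribed chromatin, H1.0 is known for its accumulation in cells that leave the cell cycle, HMGB2 bends DNA and is abundant in dividing cells, and HMGN2 binds nucleosomes and competes with linker histones. CMs of the mouse leave the cell cycle in the days after birth, many of them after DNA synthesis without cell division.

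Droplet-based scRNA-seq had been performed on left ventricular CMs of C57BL/6J mice at embryonic day 16.5 (E16.5), postnatal day 1 (P1) and postnatal day 5 (P5). Cells of all groups were methanol-fixed, stained with the cardiac marker MYH1 and with Hoechst, and sorted by DNA content into a diploid (2n) and a tetraploid (4n) fraction, which gave 6 groups, named by age and fraction from E16.5-2n to P5-4n, with no other treatment or genotype. Each group was 1 library in which cells of 3 sorts had been pooled, so that no test between groups could be made and every interval covers counting error only. The gate reads total DNA per cell and does not separate binucleated CMs from mononucleated 4n CMs, whether these are in G2 or M or not. A pair of 2n cells sorted together would also read as 4n, and no doublet caller was run. The age label of E16.5-4n reads day 16.6, while its title reads 16.5.

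The libraries held 3678 to 7469 cells each, and 30733 of the 31156 cells (98.6%) had at least 1 unique molecular identifier (UMI) of each of Tnni3, Tnnt2, Tnnc1 and Actc1 and were kept as CMs. UMIs summed over CMs came to between 13070343 (E16.5-4n) and 19665830 (P1-4n), and the median UMIs per CM ranged from 1831 (P1-2n) to 4658 (P5-4n). Between 17 and 62 cell barcodes were shared by each pair of libraries, at most 1.22% of the smaller library. Markers of other cell types moved with ploidy. Of 24 fibroblast, endothelial, immune and mural markers, 23 were higher in 4n at E16.5, 24 at P1 and 18 at P5, and their sum was 214 to 415 CPM in the 2n libraries and 518 to 1207 CPM in the 4n libraries, led by fibroblast genes. Ptprc in E16.5-2n was the only case of a marker at 0. The 6 erythroid markers, mostly globin genes, were more abundant and summed to 5127 CPM in 2n and 10332 CPM in 4n at E16.5, 1896 and 2906 CPM at P1, and 2242 and 1649 CPM at P5, with 6, 5 and 0 of them higher in 4n. No CM was left out for erythroid UMIs. The 12 mitotic genes used below also moved with ploidy, from 613 to 2681 CPM at E16.5, from 95.5 to 392 CPM at P1 and from 265 to 1360 CPM at P5. The part of all these markers in the differences was not tested, and values without the CMs that carry mitotic or fibroblast, endothelial, immune and mural markers are given below.

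The promoters of several members carry letters that are common in promoters of cell cycle genes, and they are shown for the 3 members whose windows held 2 kinds of these letters (Hmgb2, H2afv and H2afz), for H3f3b with 1 kind in 4 copies, and for Hist1h1c with a single match. The windows are from RefSeq on GRCm38.p6 and run from 250 bases before to 50 after the annotated start. They were matched for 9 of the 10 members, not for H2afx. Capitals mark the CCAAT box (CCAAT), the cell cycle homology region (CHR, TTTGAA) and 2 forms of the E2F site (TTCCCGC and TTGGCGC), each searched on both strands. The Hmgb2 window at chr8:57511593-57511892 (+ strand) held 4 CCAAT boxes and 2 CHR motifs, and the H2afv window at chr11:6444394-6444693 (- strand) held 4 and 1. The H2afz window at chr3:137864237-137864536 (+ strand) held 3 CCAAT boxes and 1 E2F motif, which overlaps the first CCAAT box on the other strand. The H3f3b window at chr11:116024455-116024754 (- strand) held 4 CCAAT boxes, and that of Hist1h1c at chr13:23738557-23738856 (+ strand) held 1.
Hmgb2: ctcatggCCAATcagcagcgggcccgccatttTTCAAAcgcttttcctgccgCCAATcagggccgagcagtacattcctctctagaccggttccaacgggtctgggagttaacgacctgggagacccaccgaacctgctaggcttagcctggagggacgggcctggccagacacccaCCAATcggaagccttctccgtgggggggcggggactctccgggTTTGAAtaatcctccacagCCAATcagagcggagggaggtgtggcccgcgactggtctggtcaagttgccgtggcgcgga
H2afv: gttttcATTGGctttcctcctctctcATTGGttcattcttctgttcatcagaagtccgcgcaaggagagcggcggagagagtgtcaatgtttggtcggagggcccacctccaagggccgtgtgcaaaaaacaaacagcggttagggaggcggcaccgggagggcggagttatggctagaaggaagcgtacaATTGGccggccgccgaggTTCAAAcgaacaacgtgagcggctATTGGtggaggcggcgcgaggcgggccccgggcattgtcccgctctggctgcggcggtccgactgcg
H2afz: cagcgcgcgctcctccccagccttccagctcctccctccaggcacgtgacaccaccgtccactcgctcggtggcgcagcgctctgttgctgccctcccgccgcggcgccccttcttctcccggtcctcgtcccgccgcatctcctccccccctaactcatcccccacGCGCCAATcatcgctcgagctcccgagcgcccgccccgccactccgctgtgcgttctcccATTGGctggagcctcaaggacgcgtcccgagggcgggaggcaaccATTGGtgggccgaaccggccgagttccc
H3f3b: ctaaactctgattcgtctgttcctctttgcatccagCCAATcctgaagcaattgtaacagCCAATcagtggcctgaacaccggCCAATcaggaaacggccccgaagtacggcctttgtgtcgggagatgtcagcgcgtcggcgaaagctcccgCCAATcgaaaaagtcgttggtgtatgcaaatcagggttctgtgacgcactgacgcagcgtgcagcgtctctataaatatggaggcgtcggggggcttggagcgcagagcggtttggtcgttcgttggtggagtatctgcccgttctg
Hist1h1c: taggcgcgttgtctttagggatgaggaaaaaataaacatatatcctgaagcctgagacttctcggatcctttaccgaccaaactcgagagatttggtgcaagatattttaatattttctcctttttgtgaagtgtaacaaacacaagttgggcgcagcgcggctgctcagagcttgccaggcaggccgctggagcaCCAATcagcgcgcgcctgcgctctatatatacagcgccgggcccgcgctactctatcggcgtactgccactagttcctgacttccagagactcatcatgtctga

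H3f3a and Hmgn2 had 1 CCAAT box each, H1fx had 1 E2F motif and no CCAAT box, and H1f0 had none of the 3 motifs. Among 32851 promoter windows of the same length, 37.4% held at least 1 CCAAT box, 1.06% at least 4, 17.9% a CHR motif, 6.95% both a CCAAT box and a CHR motif, and 6.81% an E2F motif. A match of letters is a description and no evidence of binding. H1f0 with none and Hmgn2 with 1 were, like Hmgb2, H2afv and H2afz, higher in CMs with mitotic transcripts, as described below. Their ratios were smaller than those of the latter 3 in each library. In E16.5-2n the log2 ratios were 2.41 for Hmgb2, 1.84 for H2afz and 1.43 for H2afv, against 1.16 for Hmgn2 and 0.74 for H1f0. H3f3b, with 4 CCAAT boxes, did not follow this order and was at 0.57 in E16.5-2n. It was below H1f0 in E16.5-2n, E16.5-4n and P1-4n, and above H1f0 in P1-2n, P5-2n and P5-4n. A link between the matches and the values was not tested.

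The H2A.Z gene H2afz, on chromosome 3 from 137864487 to 137866922 of GRCm38, was among the most abundant of the 10 and was highest in E16.5-4n CMs. Its level was 967 counts per 1000000 UMIs (CPM) in E16.5-2n against 2024 in E16.5-4n, 340 in P1-2n against 523 in P1-4n, and 451 in P5-2n against 873 in P5-4n. At each age the 4n library was above the 2n library, and at each ploidy P1 was the lowest age. For the share of CMs with at least 1 H2afz UMI, each CM was reduced to 1000 randomly drawn UMIs (thinned). CMs with fewer UMIs were left out of all thinned values. These were 163, 23, 700, 0, 20 and 0 CMs, ordered by age and with 2n before 4n. The share followed the same order as the level within each age, with 51.2% of 2n and 72.9% of 4n CMs at E16.5. The shares were 26.0% and 31.2% at P1, and 29.4% and 41.4% at P5. Since CMs and other heart cells all use these genes, no cell type that lacks them was at hand to give a background share.

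H2afv, on chromosome 11 from 6427229 to 6444443, encodes the other H2A.Z form and varied less. It was measured at 279 and 529 CPM in E16.5-2n and E16.5-4n, at 171 and 222 CPM in P1-2n and P1-4n, and at 186 and 373 CPM in P5-2n and P5-4n. H2afz therefore made up 77.6% and 79.3% of the UMIs of both H2A.Z genes at E16.5 in 2n and 4n, and between 66.5% (P1-2n, 95% interval 65.5% to 67.5%) and 70.8% (P5-2n, 70.0% to 71.7%) in the postnatal libraries. The E16.5 shares thus lay above all 4 postnatal shares. Each captured mRNA molecule is counted once from its 3′ end, so these shares need no correction for gene length.

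H2afx, the gene of the DNA damage variant on chromosome 9 from 44334694 to 44336077, was the scarcest of the H2A variants among the members. Its level was 74.4 CPM in E16.5-2n against 209 in E16.5-4n, 18.4 in P1-2n against 34.2 in P1-4n, and 23.1 in P5-2n against 70.7 in P5-4n. P5-4n CMs thus reached a level close to that of E16.5-2n CMs. After thinning, 16.6% of E16.5-4n CMs had a UMI of H2afx, against 1.75% of P1-2n CMs.

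**Figure D1:**
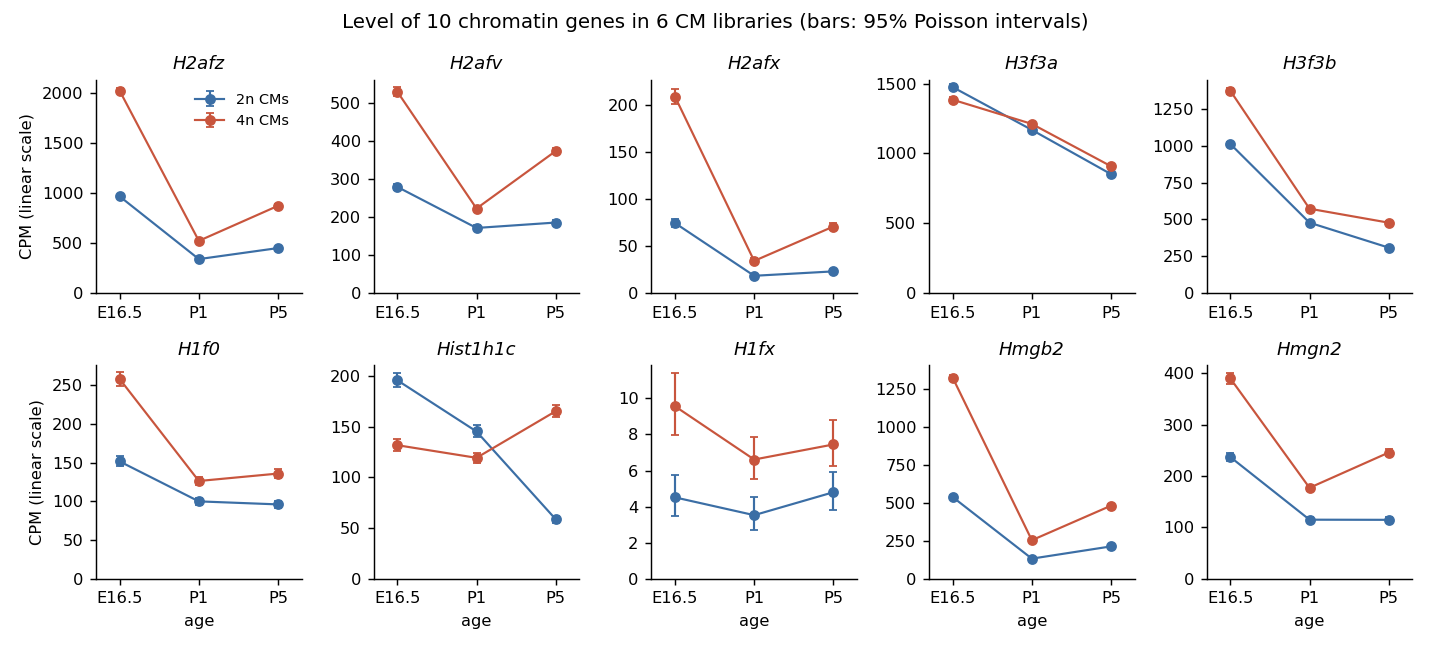
Level of each of the 10 genes in CPM (vertical axis, linear from 0, a different scale in each panel) at E16.5, P1 and P5 (horizontal axis) in 2n (blue) and 4n (red) CMs, 1 library a point, with 95% Poisson intervals that cover counting error only. Most panels show a red line above the blue one and a minimum at P1 in 4n, whereas H3f3a is lower at each later age with little distance between the lines and the lines of Hist1h1c cross between P1 (145 and 119 CPM in 2n and 4n) and P5 (58.7 and 165.3 CPM).

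The H3.3 genes encode an identical protein but their mRNAs differed in pattern. H3f3a, on chromosome 1 from 180800832 to 180813943, was at 1475 CPM in E16.5-2n against 1385 in E16.5-4n, 1169 in P1-2n against 1212 in P1-4n, and 852 in P5-2n against 909 in P5-4n. It was the most abundant member in every library except E16.5-4n, where H2afz was higher, and its level was lower at each later age at both ploidies. H3f3b, on chromosome 11 from 116021912 to 116027962, was at 1013 and 1374 CPM in E16.5-2n and E16.5-4n, at 478 and 573 CPM in P1-2n and P1-4n, and at 309 and 478 CPM in P5-2n and P5-4n. Unlike H3f3a, it was higher in 4n at all 3 ages, and its largest step lay between E16.5 and P1.

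As a result the makeup of H3.3 mRNA shifted. The H3f3a share of the UMIs of both genes was 59.3% in E16.5-2n against 50.2% (49.7% to 50.7%) in E16.5-4n, 71.0% in P1-2n against 67.9% in P1-4n, and 73.4% (72.8% to 74.0%) in P5-2n against 65.5% in P5-4n. At each age the share was lower in 4n than in 2n CMs, and both E16.5 shares were below all postnatal ones.

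Among the linker histone genes, Hist1h1c stood apart from the other members. Hist1h1c lies in the large histone cluster on chromosome 13 from 23738808 to 23740367, yet belongs to the H1 genes that are also expressed outside of S phase. Its level was 196 CPM in E16.5-2n against 132 in E16.5-4n, 145 in P1-2n against 119 in P1-4n, and 58.7 in P5-2n against 165.3 in P5-4n. The 2n library was thus the higher one at E16.5 and P1 and the lower one at P5, and P5-2n was the lowest of all 6. Shares of thinned CMs with a Hist1h1c UMI were 16.9%, 10.7%, 13.4%, 11.5%, 5.87% and 11.7% in the same order of libraries. By this measure P5-4n (10.7% to 12.8%) could not be told from P1-4n (10.6% to 12.4%) within counting error, whereas P5-2n (5.20% to 6.61%) was below all others.

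H1f0, the replacement linker histone gene on chromosome 15 from 79028450 to 79030504, was at 151 and 258 CPM in E16.5-2n and E16.5-4n, at 99.9 and 126 CPM in P1-2n and P1-4n, and at 96.0 and 136 CPM in P5-2n and P5-4n. Both 2n levels after birth lay within each other's counting intervals, 95.1 to 105 CPM at P1 and 91.5 to 101 CPM at P5. H1fx, on chromosome 6 from 87980421 to 87981637, was barely detected, with 58 to 137 UMIs per library and levels between 3.53 CPM (P1-2n) and 9.56 CPM (E16.5-4n). Of the UMIs of the 3 linker genes, Hist1h1c made up 55.7% in E16.5-2n against 33.0% in E16.5-4n, 58.4% in P1-2n against 47.3% in P1-4n, and 36.8% in P5-2n against 53.6% in P5-4n, and H1f0 nearly all of the remainder. Hist1h1c thus led these 3 linker genes in 2n CMs at E16.5 and P1, and in 4n CMs at P5. The libraries were primed on poly(A) tails, so these shares leave out any Hist1h1c mRNA that ends in a stem-loop.

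**Figure D2:**
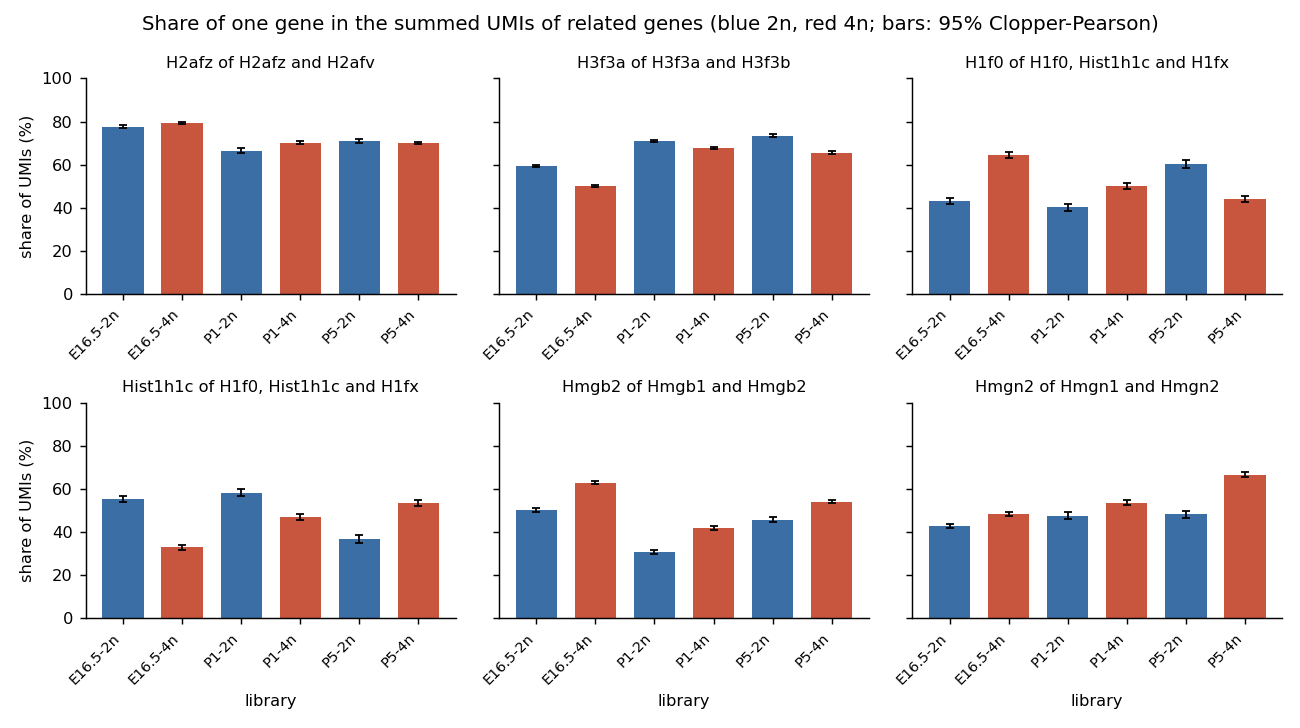
Share of 1 gene in the summed UMIs of related genes (vertical axis, percent from 0 to 100) in each library (horizontal axis; 2n blue, 4n red), with 95% Clopper-Pearson intervals. The shares of H1f0 and Hist1h1c, counted as polyadenylated mRNA only, mirror each other, with Hist1h1c at 33.0% in E16.5-4n and 53.6% in P5-4n. The H3f3a share is lower in 4n than in 2n at each age.

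Hmgb2, on chromosome 8 from 57511907 to 57515999, and H2afx had the widest relative range of levels among the members. Hmgb2 was at 539 CPM in E16.5-2n against 1327 in E16.5-4n, 133 in P1-2n against 254 in P1-4n, and 214 in P5-2n against 482 in P5-4n. After thinning, 56.5% of E16.5-4n CMs carried a UMI of Hmgb2, against 10.0% of P1-2n CMs, and 20.8% of E16.5-4n CMs carried 3 or more, against 0.422% of P1-2n CMs. Its paralog Hmgb1 varied less, from 252 CPM (P5-2n) to 779 CPM (E16.5-4n). In the UMIs summed over the pair, the Hmgb2 share was therefore 63.0% for E16.5-4n and 30.8% for P1-2n.

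Hmgn2, on chromosome 4 from 133964738 to 133968650, was at 237 and 390 CPM in E16.5-2n and E16.5-4n, at 115 and 177 CPM in P1-2n and P1-4n, and at 115 and 246 CPM in P5-2n and P5-4n. The P5-4n level was thus above that of E16.5-2n. Its paralog Hmgn1 had nearly equal levels at P5, 123 CPM (2n) and 122 CPM (4n), so that the Hmgn2 share of both was 48.3% and 66.8% in these libraries. Hmgn2 counts are uncertain, since 41.9% of the 100-base words in the last 500 bases of its transcript also occur in the gene Gm10282. No such word was shared by the ends of the other 9 members.

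The 4n CMs were compared with the 2n CMs of the same age to ask how these genes differ with DNA content. At E16.5, H2afz, H2afx, H2afv, H1f0, H1fx, Hmgb2 and Hmgn2 were higher in 4n CMs by 1.5-fold or more. At P1 these were H2afz, H2afx, H1fx, Hmgb2 and Hmgn2, all but H1fx with smaller ratios than at the other ages. At P5 they were all members except H1f0 and H3f3a. No member was 1.5-fold lower in 4n at any age, beside 1.04% of all genes at E16.5, 0.29% at P1 and 1.85% at P5. H3f3a differed by at most 0.09 on the log2 scale at each age.

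The 7 members past 1.5-fold at E16.5 stood beside 9.3% of 9625 genes that were higher by this fold. At P1, 5 members were past it beside 9.61% of 9653 genes, and at P5, 8 members beside 3.84% of 9349 genes. The median log2 ratio of the 10 members was 0.85, 0.50 and 0.98 at E16.5, P1 and P5, against 0.03, 0.05 and 0.02 over all genes with at least 100 UMIs in both libraries together.

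H2afx had the largest log2 ratio at E16.5, 1.49 (95% interval 1.39 to 1.59), a 2.80-fold difference, and at P5, 1.61 (1.45 to 1.78), a 3.06-fold difference. At P1 it was 0.89 (0.70 to 1.09). Hmgb2 was at 1.30 (1.26 to 1.34) at E16.5, 0.94 (0.86 to 1.01) at P1 and 1.17 (1.12 to 1.23) at P5, and at P1 its ratio was the largest, with overlapping intervals for Hmgb2, H1fx (0.91) and H2afx. The DNA damage variant and the DNA-bending protein thus led the list at E16.5 and P5, apart from Hist1h1c at P5.

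H2afz differed by a log2 ratio of 1.06 (1.04 to 1.09), 0.62 (0.57 to 0.67) and 0.95 (0.92 to 0.99) at E16.5, P1 and P5. For H2afv the values were 0.92, 0.38 and 1.01. Hmgn2 was at 0.72 (0.66 to 0.78), 0.62 (0.54 to 0.70) and 1.10 (1.02 to 1.17), so that its ratio was largest at P5. H1f0 was at 0.77 (0.69 to 0.85) at E16.5, 0.34 at P1 and 0.50 (0.41 to 0.59) at P5, the last 2 short of the 1.5-fold mark of 0.58. H3f3b reached 0.44, 0.26 and 0.63, and the interval of the last, 0.58 to 0.68, reaches down to the mark.

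Hist1h1c gave opposite directions. Its log2 ratio of 4n over 2n was -0.57 (-0.66 to -0.48) at E16.5, -0.28 (-0.37 to -0.20) at P1 and 1.49 (1.39 to 1.60) at P5, the last a 2.82-fold difference. The E16.5 value lay just inside the mark, at percentile 1.12 of all genes, and the P5 value lay at percentile 98.9. After scaling by the median of ratios the E16.5 value was -0.59, past the mark, so that 7 members were higher, beside 9.02% of genes, and 1 lower, beside 1.22%. Whether the ages differ was not tested, since each rests on 1 library per group.

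**Figure D3:**
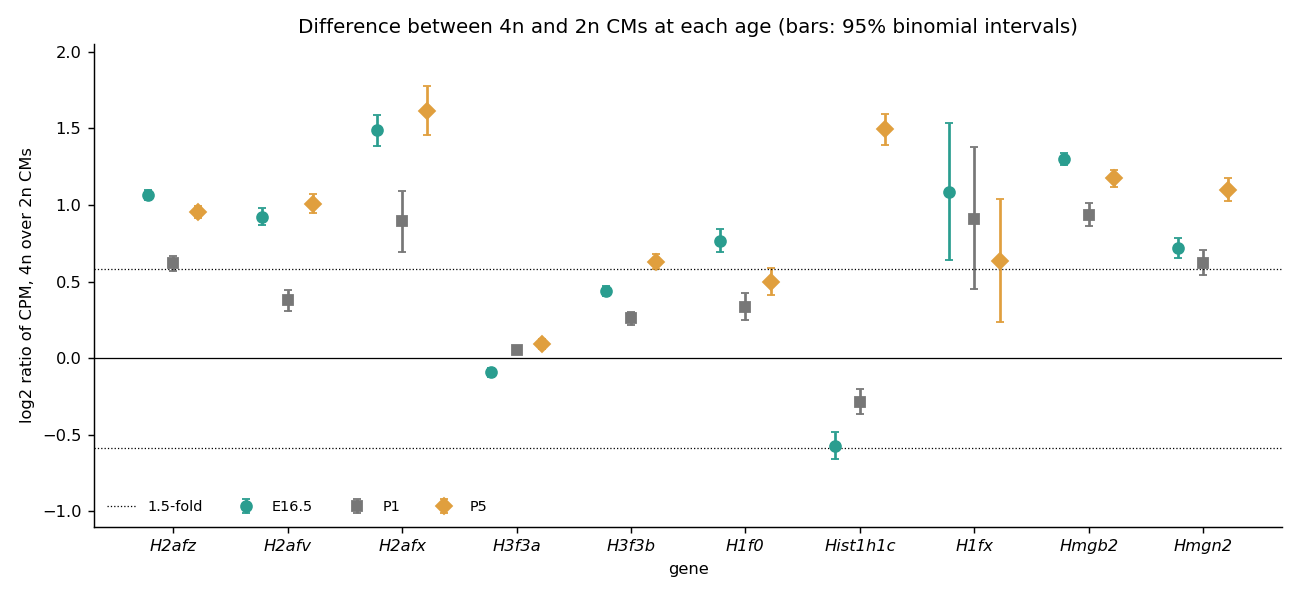
Log2 ratio of CPM of 4n over 2n CMs (vertical axis) for each gene (horizontal axis) at E16.5 (circles), P1 (squares) and P5 (diamonds), with 95% intervals of the binomial split of the UMIs and dotted lines at 1.5-fold. H3f3a lies within 0.09 of zero at each age, and Hist1h1c goes from -0.57 to 1.49. The P1 value is the lowest of the 3 for H2afz, H2afv, H2afx, H3f3b, H1f0, Hmgb2 and Hmgn2.

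The markers of other cell types were taken out by leaving out every CM with a UMI of any of the 24. This left out 22.0% of 2n and 45.3% of 4n CMs at E16.5. At P1 it left out 29.8% and 67.6%, and at P5 48.0% and 58.8%. The rule was applied before thinning, so the share left out also depends on the depth of each CM. Not all of the 24 markers moved much with ploidy. Abcc9, listed as a mural marker, was at 89.3 CPM in P1-2n against 92.8 in P1-4n, and at 71.1 CPM in P5-2n against 69.3 in P5-4n. Whether its UMIs came from CMs was not tested, and CMs that carry it were left out as well. The counts of members higher by 1.5-fold were then 7 at E16.5 (beside 6.68% of all genes), 3 at P1 (2.08%) and 9 at P5 (4.22%), with Hist1h1c past the mark in the lower direction at E16.5 (-0.78), as were 2.73% of all genes. These were counts of 10, 9 and 10 members that still had 100 UMIs. The log2 ratio of H2afx was 1.80, 1.15 and 2.17. Among CMs thinned to 1000 UMIs and without a UMI of the 12 mitotic genes, the counts were 1 at E16.5 (beside 5.8% of all genes), 0 at P1 (4.64%) and 1 at P5 (1.53%), of 9, 9 and 8 members that still had 100 UMIs. The member left at E16.5 was H2afx, with a log2 ratio of 0.60 against 1.49 in all CMs, and that at P5 was Hist1h1c, with 1.09 against 1.49. H2afx at P5 was at 0.72 but no longer had enough UMIs to be counted. H2afz at P5 was at -0.14 and Hmgb2 at -0.14 in these CMs. These CMs were chosen by transcripts that move with both genes.

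The youngest postnatal libraries were compared with the fetal ones to ask how the genes differ across birth. In 2n CMs H2afz, H2afx, H2afv, H1f0, H3f3b, Hmgb2 and Hmgn2 were lower at P1 than at E16.5 by 1.5-fold or more. These same 7 genes were lower in 4n CMs, with ratios further from zero. H1fx, H3f3a and Hist1h1c were short of the mark at both ploidies.

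The 7 members of 2n CMs stood beside 31.4% of 9391 genes that were lower by this fold, and those of 4n CMs beside 30.4% of 9958 genes. The median of all genes was itself shifted, by -0.34 in 2n and -0.30 in 4n. Relative to this median, Hmgb2 was at -1.69 in 2n and -2.08 in 4n, H2afx at -1.68 and -2.31, H2afz at -1.17 and -1.65, H3f3b at -0.75 and -0.96, and Hmgn2 at -0.71 and -0.84. H3f3a lay at the median in 2n and 0.11 above it in 4n, and Hist1h1c was at -0.10 and 0.16 relative to it, so that their direction in 4n is opposite to that of the unshifted ratios of -0.19 and -0.14. After scaling by the median of ratios, 5 members were lower in 2n, beside 15.9% of genes, and 7 in 4n, beside 14.8% of genes. Unshifted, Hmgb2 was 4.06-fold lower in 2n and 5.22-fold lower in 4n, and H2afx 4.04-fold and 6.09-fold lower.

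Between P1 and P5 the ploidy fractions differed more from each other. In 2n CMs Hmgb2 alone was higher at P5 by 1.5-fold, and H3f3b and Hist1h1c were lower. In 4n CMs H2afz, H2afx, H2afv and Hmgb2 were higher, and no member was lower by this fold, beside 16.1% of genes. The log2 ratio of Hist1h1c was -1.31 (-1.41 to -1.20) in 2n and 0.47 (0.39 to 0.55) in 4n. A difference between the fractions was not tested.

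The counts of 1 higher and 2 lower in 2n stood beside 7.27% and 9.11% of 9230 genes, and the 4 higher in 4n beside 5.14% of 9764 genes. The median of all genes was at -0.09 in 2n and -0.16 in 4n. Relative to it the 4n values were 1.21 for H2afx, 1.08 for Hmgb2, 0.91 for H2afv and 0.90 for H2afz, against 0.42, 0.78, 0.21 and 0.50 in 2n. H3f3a was lower relative to the median in both, at -0.36 in 2n and -0.26 in 4n. In 2n, H1f0 was at 0.04 relative to the median and at -0.06 without this shift. After scaling by the median of ratios 6 members were higher in 4n, beside 7.04% of genes, with Hist1h1c and Hmgn2 added at 0.59 each. In 2n that scaling left 1 higher, beside 9.51% of genes, and 1 lower, beside 5.98%, with H3f3b short of the mark at -0.53. Among the CMs without a UMI of the 12 mitotic genes no member was higher in 2n, beside 4.73% of genes, with Hmgb2 at 0.36, and 2 were lower, beside 11.4%. In these CMs no member was higher in 4n, beside 3.16% of genes, and 1 was lower, beside 15%.

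Because several of these genes are known from dividing cells, CMs of each library were divided by their own cell cycle transcripts. The S list (43 genes) and the G2/M list (53 genes without the member Hmgb2) held no member. In CMs thinned to 1000 UMIs, those with 3 or more UMIs of these lists made up 20.0% (P1-2n) to 78.0% (E16.5-4n), and those with 0 made up 3.66% (E16.5-4n) to 26.7% (P1-2n). A class cut from such a sum is a range and not a cell type, and cells of 1 library are not replicates.

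H2afz, Hmgb2 and Hmgn2 were higher by 1.5-fold or more in the CMs with such UMIs in all 6 libraries. The share of all genes higher by this fold was 8.81% in E16.5-2n against 20.9% in E16.5-4n, 3.12% in P1-2n against 5.22% in P1-4n, and 7.86% in P5-2n against 18.8% in P5-4n. Hmgb2 had log2 ratios between 1.84 (P1-2n) and 3.47 (P5-4n), H2afz between 1.29 (P1-2n) and 2.40 (P5-4n), and Hmgn2 between 0.60 (P1-2n) and 1.98 (P5-4n). The ratio of H2afx was between 1.21 (P1-2n) and 2.98 (P5-4n), but its classes held fewer than 100 UMIs in P1-2n and P5-2n. H3f3a was between -0.10 and 0.12. Hmgn2 no longer passed in all 6 libraries when the rule was set at 2 UMIs, at 2000 UMIs per CM, at a fold of 2 or without other-cell markers, which left 2 members, and with the S list alone H2afv passed in its place.

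In some libraries few CMs had none of these UMIs, down to 3.66% in E16.5-4n. Another rule was therefore added after the data had been seen. It set 2 or more against 0 UMIs of 12 mitotic genes (Top2a, Mki67, Cdk1, Birc5, Ube2c, Nusap1, Tpx2, Cenpf, Ccnb2, Cdca8, Aurkb and Cenpe). CMs with 2 or more made up 12.9% of E16.5-2n against 46.9% of E16.5-4n, 1.46% of P1-2n against 6.34% of P1-4n, and 5.05% of P5-2n against 29.4% of P5-4n. H2afz, H2afv, H1f0, Hmgb2 and Hmgn2 were then higher by 1.5-fold in every library. H2afx had log2 ratios from 2.38 (E16.5-2n) to 3.63 (P1-4n). It was not counted because its P5-2n classes, at 2.70, held fewer than 100 UMIs. All genes higher by this fold were 7.7% of those with at least 100 UMIs in E16.5-2n against 10.4% in E16.5-4n, 22.1% in P1-2n against 13.1% in P1-4n, and 15.1% in P5-2n against 15% in P5-4n.

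Hmgb2 was at 298 CPM in E16.5-2n CMs without and 1587 CPM in those with mitotic UMIs, at 362 and 2287 CPM in E16.5-4n, at 97.1 and 1278 CPM in P1-2n, at 127 and 1601 CPM in P1-4n, at 124 and 1176 CPM in P5-2n, and at 113 and 1267 CPM in P5-4n. The log2 ratio was 2.41 and 2.66 in the E16.5 libraries and 3.24 to 3.72 in the postnatal ones. The CMs without mitotic UMIs thus differed between E16.5 and the later ages, while the P1-2n CMs with them (97 of 6640) reached a level within that of the other libraries.

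H2afz was at 641, 791, 290, 319, 314 and 284 CPM in CMs without mitotic UMIs, ordered by age and with 2n before 4n. In CMs with them it was at 2297, 3212, 2278, 2561, 1653 and 2021 CPM. Among the CMs without mitotic UMIs the 4 postnatal levels lay within 284 to 319 CPM, below both E16.5 levels. H2afx was highest in the same class, at 197 and 352 CPM at E16.5 against 37.9 and 57.6 CPM in CMs without, and at 199 CPM in P5-4n against 21.7 CPM.

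The linker histone gene H1f0 is known from cells that leave the cycle, and its values here were higher in CMs with mitotic UMIs. The log2 ratio was 0.74 (0.48 to 1.00) in E16.5-2n against 1.29 (1.09 to 1.49) in E16.5-4n, 1.00 in P1-2n against 0.97 in P1-4n, and 1.38 in P5-2n against 0.84 (0.57 to 1.11) in P5-4n. All 6 intervals lay above 0. By the S and G2/M lists, in contrast, the H1f0 ratio was 0.16 (-0.20 to 0.54) in E16.5-2n, 0.21 (-0.12 to 0.54) in P1-2n and 0.27 (-0.16 to 0.72) in P5-2n, and its interval excluded 0 only in the 4n libraries, at 0.89, 0.66 and 1.38. By mitotic UMIs H3f3b ranged from 0.50 (E16.5-4n) to 1.54 (P5-2n), and H3f3a from 0.05 (E16.5-4n) to 0.22 (P5-4n).

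**Figure D4:**
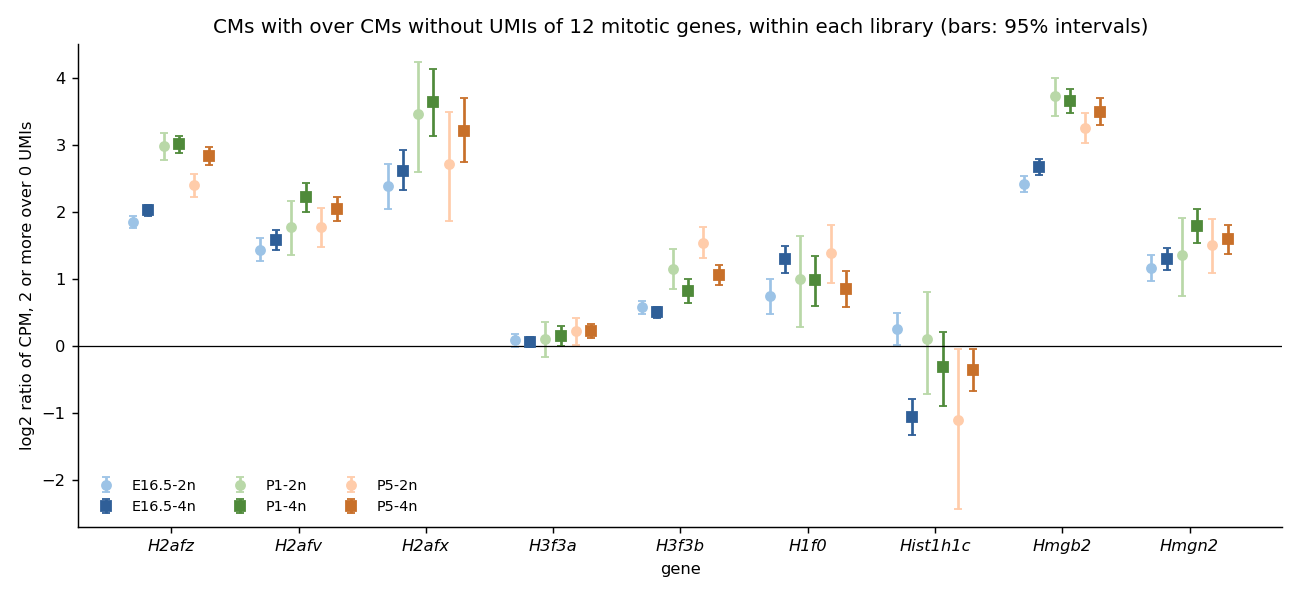
Log2 ratio of CPM in CMs with 2 or more UMIs over CMs with 0 UMIs of 12 mitotic genes (vertical axis), within each library (colours; circles 2n, squares 4n), for 9 genes (horizontal axis), in CMs thinned to 1000 UMIs and with 95% intervals. H1fx is left out for its low counts. Hmgb2 lies between 2.41 and 3.72, H3f3a near zero in all libraries, and Hist1h1c is lowest in E16.5-4n (-1.06) and P5-2n (-1.11).

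Hist1h1c had no common direction in this comparison. It was lower in CMs with mitotic UMIs in E16.5-4n, at 79.4 against 166 CPM (log2 ratio -1.06, -1.34 to -0.79), in P5-2n, from 7 UMIs, at 31.5 against 68.0 CPM (-1.11, -2.44 to -0.05), and in P5-4n, at 113 against 145 CPM (-0.36, -0.68 to -0.05). It was higher in E16.5-2n, at 243 against 204 CPM (0.25, 0.01 to 0.49). The P5-4n direction depended on the rule, since CMs with 3 or more UMIs of the S and G2/M lists were at 173 CPM against 104 CPM in those with 0 (0.73, 0.25 to 1.25). By those lists E16.5-4n was again lower (-0.76, -1.28 to -0.20), and E16.5-2n was at 0.0019 (-0.30 to 0.31). Another division, by phase, showed more of its pattern. CMs with at least 3 UMIs of the S list and 0 of the 12 mitotic genes were set against CMs with 0 UMIs of the S list and of the mitotic genes, and against CMs with at least 2 mitotic UMIs and 0 of the S list, a division also chosen after the data had been seen. All other CMs, 33.6% (P1-2n) to 71.8% (E16.5-4n) of those thinned, were left out of these classes.

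In the CMs with S list UMIs only, Hist1h1c was lower than in the CMs with 0 UMIs of both in each of the 6 libraries. The libraries were primed on poly(A) tails, so any mRNA of this clustered gene that ends in a stem-loop would not be counted. The values therefore describe its polyadenylated mRNA only. In E16.5-2n it was at 238 CPM in CMs with 0 of both and at 91.4 CPM in the S class, a log2 ratio of -1.38 (-1.84 to -0.95). For E16.5-4n the levels were 191 and 119 CPM, for P1-2n 161 and 82.5, for P1-4n 138 and 69.3, for P5-2n 86.7 and 35.1, and for P5-4n 144 and 115. Intervals lay below 0 in 4 of the 6, all except P1-4n and P5-4n, whose S classes held 7 and 9 Hist1h1c UMIs. In these same CMs H2afz was higher by log2 ratios of 0.98 to 2.16 and Hmgb2 by 1.35 to 2.48, with all 6 intervals above 0. H1f0 gave no interval that excluded 0.

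CMs with mitotic UMIs only held more Hist1h1c in some libraries. In E16.5-2n they were at 444 CPM (344 to 563), in P1-2n at 476 CPM (228 to 876, from 10 UMIs in 21 CMs) and in P5-4n at 248 CPM (191 to 317), all above the CMs with 0 of both. In E16.5-4n they were at 125 CPM (89.3 to 170), below them. Several members were higher in the mitotic than in the S class. For Hmgn2 and H2afv the log2 ratios of mitotic over S were 1.11 and 0.84 in E16.5-2n. They were 1.11 and 0.98 in E16.5-4n, and 1.26 and 1.04 in P5-4n. In the same libraries the ratio of Hist1h1c was 2.28, 0.067 and 1.10, with an interval that included 0 in E16.5-4n. Hmgb2 was at 0.49, 1.43 and 0.81, and H2afz at 0.49, 1.07 and 0.50.

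**Figure D5:**
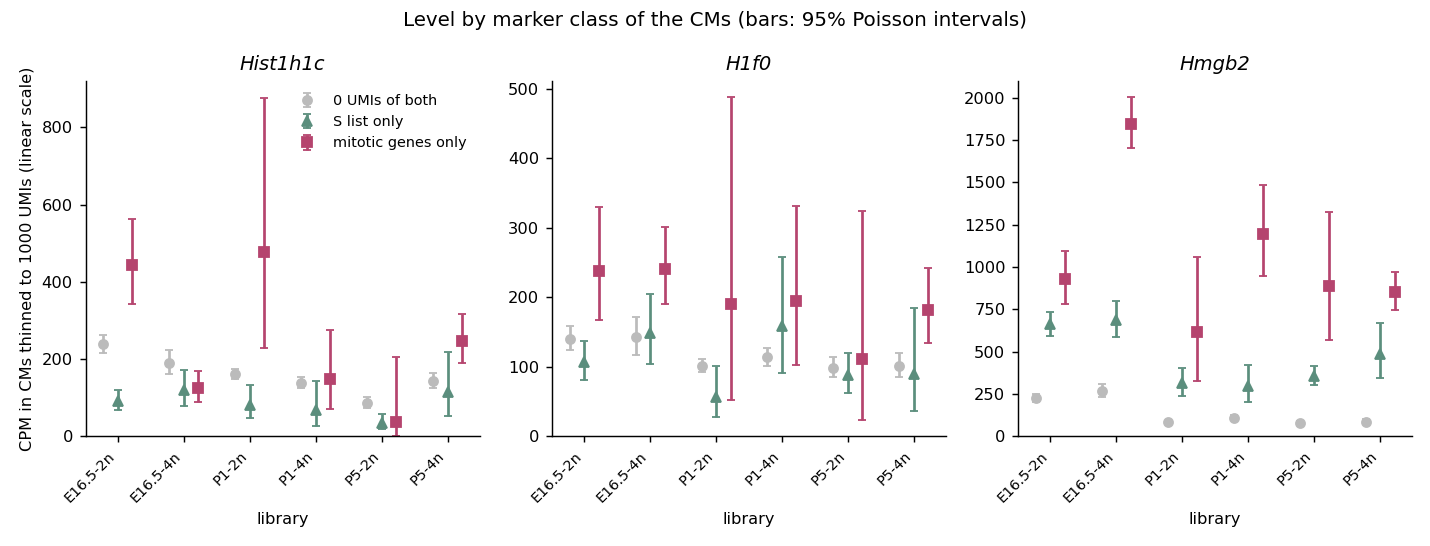
Level in CPM (vertical axis, linear from 0) of Hist1h1c, H1f0 and Hmgb2 in each library (horizontal axis) in CMs with 0 UMIs of the S list and the mitotic genes (grey circles), CMs with S list UMIs only (green triangles) and CMs with mitotic UMIs only (purple squares), thinned to 1000 UMIs, with 95% Poisson intervals. Hist1h1c, counted as polyadenylated mRNA only, is lower in the S class than in the grey class of every library. Hmgb2 is higher in both marked classes.

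The UMIs of Hist1h1c were also counted within single CMs. Of 3654 thinned P5-4n CMs, 29 had 3 or more Hist1h1c UMIs, or 0.794% (0.532% to 1.14%). In P5-2n these were 3 of 4393 CMs (0.0683%), and in E16.5-2n 42 of 5536 CMs (0.759%). The core histone gene Hist1h2bc of the same cluster, which also makes polyadenylated mRNA, was at 1138 CPM (783 to 1598) in those 29 CMs and at 215 CPM (199 to 232) in the P5-4n CMs without Hist1h1c. In E16.5-2n it was at 500 CPM (310 to 764) in the 42 CMs and at 150 CPM in those without. In E16.5-4n Hist1h2bc was instead at 71.4 CPM, from 1 UMI, in the 14 CMs with 3 or more, against 125 CPM in those without. In P1-2n, P1-4n and P5-2n it was higher in CMs with 3 or more, from only 2, 6 and 2 UMIs. CMs with 1 Hist1h1c UMI were above CMs with 0 in every library, from 227 against 159 CPM in P1-2n to 552 against 215 CPM in P5-4n. Of the 29 CMs, 13.8% had 2 or more mitotic UMIs, against 30.2% of the CMs without Hist1h1c. Their markers of other cell types were at 34.5 CPM, against 582 CPM. Both values of the 29 CMs rest on few counts and have no interval. In E16.5-2n 14.3% of the 42 CMs had 2 or more mitotic UMIs, against 12.5% of those without Hist1h1c. The other-cell markers were higher in CMs with 3 or more Hist1h1c UMIs in E16.5-4n, at 2714 against 975 CPM. They were also higher in P5-2n, at 667 against 402 CPM, from 3 CMs, and lower in the other libraries.

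Hist1h2bc also shared with Hist1h1c the direction of 4n against 2n at each age. Its level was 170 CPM in E16.5-2n against 137 in E16.5-4n, 173 in P1-2n against 158 in P1-4n, and 133 in P5-2n against 268 in P5-4n, so that 4n was below 2n before P5 and above it at P5. In other respects the genes differed. Hist1h1c was highest in E16.5-2n and Hist1h2bc in P5-4n. From P1-2n to P5-2n Hist1h1c was 2.48-fold lower and Hist1h2bc 1.30-fold lower. In CMs with S list UMIs only Hist1h2bc was below the CMs with 0 UMIs of both in all 6 libraries. The log2 ratios lay between -1.45 and -0.37, with 5 of 6 intervals below 0, again for polyadenylated mRNA only. The genes listed here as replication-dependent core histones were nearly absent from these poly(A)-primed libraries. Hist1h2bc, Hist1h4i, Hist2h2be, Hist3h2a and Hist3h2ba were instead listed with the other histone variants. Hist3h2a was at 39.5 CPM (P5-4n) to 77.5 CPM (E16.5-2n). The 55 of 56 listed genes that are in the files, Hist1h2bc not among them, summed to 18.3 CPM in E16.5-2n and at most 34.1 CPM in P5-4n.

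Of 17 genes in the files that were listed as other histone variants and linker histones, 8 or 9 had enough UMIs to be compared between 4n and 2n CMs. This list includes the core histone genes Hist1h2bc, Hist1h4i, Hist2h2be, Hist3h2a and Hist3h2ba. At E16.5, 2 were higher by 1.5-fold, at P1 1 and at P5 3, beside 9.3%, 9.61% and 3.84% of all genes. None was lower. Those past the mark were Cenpa at each age, Hist1h4i at E16.5 and P5, and Hist1h2bc at P5. Cenpa, the centromeric H3 variant, led at each age with levels of 109 and 341 CPM at E16.5, 45.4 and 104 CPM at P1 and 55.3 and 306 CPM at P5 in 2n and 4n. The H1 genes of germ cells Hist1h1t, H1foo and H1fnt were at 0 UMIs in all 6 libraries. Hils1, looked up with them, had 1 UMI in P5-4n and 0 in each other library.

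Of 6 other HMG genes compared at E16.5 and P1, none was past 1.5-fold in 4n, beside 9.3% and 9.61% of all genes higher. Of 5 at P5, 2 were higher, beside 3.84% of all genes, Hmgb1 at a log2 ratio of 0.69 and Hmgn5 at 1.02. Across birth 4 of 6 were lower in 2n and 5 of 6 in 4n, beside 31.4% and 30.4% of all genes, led by Hmgn3 at -1.44 in both.

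Histone chaperones and exchange factors carry histones to DNA and swap them in nucleosomes. Of 32 such genes, 4 were higher in 4n at E16.5, 2 at P1, and 3 higher and 2 lower at P5, with medians of 0.15, 0.05 and 0.06. As shares, the higher genes at E16.5 and P1 were close to the 9.3% and 9.61% of all genes, and at P5 3.84% of all genes were higher and 1.85% lower. Hjurp, the chaperone of CENPA, led at each age with log2 ratios of 1.78, 1.15 and 1.33. At P5 the 2 genes lower in 4n were Chaf1a (-1.12) and Chaf1b (-0.89), subunits of the CAF-1 complex that places H3 and H4 behind the replication fork. Across birth 20 of 32 were lower in 2n and 25 of 32 in 4n, beside 31.4% and 30.4% of all genes, led by Asf1b, a chaperone of new H3 and H4, at -2.24 and -2.77.

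Genes of cohesin, condensin and nuclear architecture hold and fold chromosomes and line the nuclear envelope. Of 28 such genes, 16 were higher in 4n at E16.5, 9 at P1 and 10 at P5, and none was lower, with medians of 0.73, 0.34 and 0.28, beside 9.3%, 9.61% and 3.84% of all genes higher. Top2a, the topoisomerase that resolves DNA tangles in mitosis, was at 60.8 and 286 CPM in E16.5-2n and E16.5-4n and at 39.3 and 118 CPM in P5-2n and P5-4n. Between E16.5 and P1, 20 of 28 were lower in 2n and 22 of 28 in 4n, beside 31.4% and 30.4% of all genes, and between P1 and P5, 10 were higher in 2n and 12 in 4n, beside 7.27% and 5.14%. The medians of these 4 comparisons were -0.88, -1.40, 0.36 and 0.49.

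The genes most like each member over the 6 libraries were sought by Pearson's r of log2(CPM + 1) among 7620 genes of at least 10 CPM in some library, as a description over 6 points that share depth, age and ploidy. Tmpo, which encodes lamina-associated proteins, was most like H2afz (r = 0.999), followed by Cks1b and Ect2. For Hmgb2 the leading genes were Cenpt, Ect2 and Zwilch, each at r = 0.997 to 0.998. H3f3b was most like Fam168b, Phc3 and Ppia, and H3f3a most like Eif3e, Pdcd6 and Txndc15. Hist1h1c had the least alike partner, Naa10 at r = 0.933, and 0 genes outside the list reached 0.95 for it, against 636 for H3f3a and 208 for H2afz. Between members, H2afz and Hmgb2 had r = 0.999, and Hist1h1c was at 0.35 with Hmgb2.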

How the data were processed

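ScRNA-seq libraries (10x Genomics 3′ v2 chemistry) were aligned by the authors with STAR within Cell Ranger (version not given in the sources used here) to mm10 (GRCm38). They deposited UMI counts per gene and called cell, not normalized. Seurat 2.3.0 is also named in the submitters' processing notes. The authors' table comparing 2 groups of CMs and their background gene list were not used.

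Cells with at least 1 UMI of each of 4 CM markers were kept here, and no doublet caller was run. UMIs were summed over CMs (13070343 to 19665830 per library), divided by all their UMIs and multiplied by 1000000 (CPM). Ratios have exact 95% intervals of the binomial split of UMIs, levels Poisson and shares Clopper-Pearson intervals, all covering counting error only. Members were counted at 1.5-fold with at least 100 UMIs in both libraries together, and with 1 library per group no p-value was computed. Ratio intervals were run on simulated data with independent Poisson counts per gene, the case that these intervals assume. That run cannot show how they cover counts that are uneven between CMs. Python 3.11.15, numpy 2.4.6, scipy 1.17.1 and pandas 2.3.3 were used, with the GENCODE annotation of GRCm38.

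The members and all gene lists were chosen with earlier results of these data known. Named genes were the members, at most 4 genes of largest ratio per list, Hmgb1, Hmgn1, Top2a and the 3 genes most like a member. Hist1h2bc, Hist3h2a and the germ cell H1 genes were named after their values had been seen. Alternatives covered scaling, the CM filter, depth, other-cell markers, cycling CMs, averaging, the UMI minimum and the fold.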

Additional observations from a re-analysis of the deposited data

Results flagged for a closer look

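The log2 ratio of H3f3a in 4n over 2n CMs was -0.091 at E16.5, 0.052 at P1 and 0.093 at P5, and thus differed in sign between ages. The sizes are small beside the other members, and no test of the difference was possible with 1 library per group.

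Hist1h1c was lower in 4n than in 2n CMs at E16.5 (log2 ratio -0.571) and at P1 (-0.284) and higher at P5 (1.49). For P5 over P1 its log2 ratio was -1.31 in the 2n fraction and 0.470 in the 4n fraction. These opposite directions were not tested. In the CMs without UMIs of 12 mitotic genes the ratios of 4n over 2n were -0.30, -0.26 and 1.09 at E16.5, P1 and P5, so that the opposite directions were also measured there. P5-2n had the lowest level of the 6 libraries (58.7 CPM), and both the P5 ratio and the step from P1 in 2n rest on that library.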

How the results depend on the processing

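No paired analysis was possible because each group was 1 library, and for the same reason no library could be left out of a group. The CM filter at 0 or 2 UMIs of each marker, the UMI minimum, both other scalings and the mean over CMs kept each count of members, both directions together, within 1.5 times its value. By direction, Hist1h1c was added as lower at E16.5 under both scalings and the mean, and H3f3b was lost as lower for P5 over P1 in 2n under the median of ratios. Thinning lowered the count of 4n over 2n at P1 from 5 to 3, as did leaving out CMs with other-cell markers (3). Both settings left 9 of the 10 members to count at P1. At a fold of 2 the counts of 4n over 2n were 4, 0 and 5 at E16.5, P1 and P5, all higher, beside 4.64%, 5.23% and 1.87% of all genes. For P5 over P1 at that fold, 1 was lower and none higher in 2n, beside 1.98% of genes, and 1 was higher in 4n, beside 2.40%. In CMs without any UMI of the S and G2/M lists the counts of 4n over 2n were 0, 0 and 0, with 8, 8 and 4 members left to count, beside 2.43%, 2.497% and 1.56% of genes higher, and those of P1 over E16.5 were 4 in 2n and 3 in 4n, all lower, beside 22.9% and 21.5%. For P5 over P1 in 4n, with 8 members left to count, none was higher in place of 4, and 3 were lower, beside 14.1%. H2afz, H2afv and Hmgb2, higher in all CMs, were not among these 3. In 2n Hmgb2 was no longer counted, at 0.051. Without UMIs of the 12 mitotic genes, an alternative chosen after seeing the data, the counts of 4n over 2n were 1, 0 and 1, and P5 over P1 in 4n gave 1 lower. Within libraries that rule gave 5 members in place of 3, and the other rules and settings 2 to 4.

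Among ratios past the mark, the sign turned only in these 2 subsets. Smaller ratios turned under other settings too, 4 of 70 under the median of ratios, among them H3f3a and Hist1h1c for P1 over E16.5 in 4n at 0.13 and 0.18, and at most 3 of 70 under any setting apart from these. For 4n over 2n at P5, H1fx was at -0.87 without UMIs of both lists and -0.74 without mitotic UMIs, on few UMIs, Hmgb2 at -0.053 and -0.14, and H2afz at -0.14 without mitotic UMIs. For P5 over P1 in 4n, H2afz was at -0.080 and -0.17, Hmgb2 at -0.53 and -0.18, and H2afv at -0.12 without UMIs of both lists. These subsets hold fewer CMs at 1000 UMIs each, and the cause of the reversals was not tested. Depth limits H1fx most, with 58 to 137 UMIs per library.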
